A study of Mus musculus with 3 samples.

Results

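The Krt6a-negative epithelial cells described here are the epithelial cells of the embryonic mouse soft palate in which no transcript of Krt6a, a keratin of the flat outer cells of the oral epithelium, was counted. Members were chosen by measured values: a cell barcode was taken when it had 500 or more detected genes and at most 10% mitochondrial counts, at least 1 unique molecular identifier (UMI, the tag by which each captured transcript is counted once) of Epcam, 5 or more UMIs of Krt5, Krt14, Krt8 and Perp together, and none of Krt6a, Cdh5, Tyrobp and Myog. Of 14049 barcodes that passed the first 2 conditions, 539 met the rule, or 3.84%. The soft palate of C57BL/6 embryos at E14.5 was measured with 10x Genomics 3′ v2 chemistry in 3 libraries. The 2 libraries labelled control came, per the paper, from embryos with 1 or 2 floxed copies of Tgfbr1 (Tgfbr1 fl/+ or Tgfbr1 fl/fl), the gene of the type I TGF-beta receptor that is also called Alk5, and which control library had which is not given. The remaining library, labelled Osr2-Cre;Alk5fl/fl and called the mutant below, has both copies floxed together with Osr2-Cre. Osr2-Cre drives deletion in the palatal mesenchyme, and the deletion was not measured in epithelial cells. The labels do not give the number of embryos in a library, and nothing in them shows that the libraries came from separate litters.

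Palatal epithelium at this stage consists of a basal layer on the basement membrane, marked by the transcription factor p63 (Trp63) and the keratins Krt5, Krt14 and Krt15, beneath a superficial layer called periderm that expresses Krt6a and Krt17. The nasal side of the palate turns into a ciliated airway-type epithelium with simple keratins such as Krt8, Krt18 and Krt19, and the transcription factor Foxj1 is the master regulator of its motile cilia. The epithelium signals to the mesenchyme through ligands such as Shh, Pdgfa, Wnt and TGF-beta proteins and receives growth factors in return.

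Control 1 held 88 members among 2117 barcodes, control 2 held 153 among 3821 and the mutant 298 among 8111. The share was 4.16% in control 1 (95% exact Clopper-Pearson interval 3.35 to 5.10), 4.00% in control 2 (3.40 to 4.68) and 3.67% in the mutant (3.28 to 4.11), and the intervals overlap. Below, sets of 3 values are in the order control 1, control 2, mutant. Cells that met the rule but carried Krt6a, called Krt6a-positive here, numbered 19, 75 and 127. Members were therefore 82.2%, 67.1% and 70.1% of the epithelial cells, and the mutant lay between the controls. The median member had 12891.5, 12993 and 11504 UMIs, against 8238, 5286 and 5272 over all kept barcodes. Summed over members, the libraries held 1393381, 2383322 and 4232139 UMIs, and levels below are CPM, the UMIs of a gene scaled to a sum of 1000000. All intervals cover counting error only. The members of the 2 controls differed from each other by more than counting error, with a chi-square of 6.67 per degree of freedom over 10708 genes. Between 18 and 49 barcode sequences were shared by each pair of libraries, and none of them belonged to a member in both.

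The genes of the rule chose these cells, and their values are given as a description. Epcam, an epithelial adhesion molecule, stood at 274, 271 and 241 CPM. The basal keratin Krt5 stood at 258, 171 and 99.7 CPM, while its partner Krt14 stood at 306, 351 and 508 CPM. Krt5 was thus lowest and Krt14 highest in the mutant. Krt8, a keratin of simple epithelia, stood at 263, 170 and 83.9 CPM, and Perp, a desmosome component, at 327, 257 and 162 CPM. Just outside the rule, 4, 17 and 47 cells had a keratin and Perp sum of 4 UMIs, and just inside it 6, 11 and 29 had a sum of 5. At the Krt6a border, 6, 11 and 33 epithelial cells had a single Krt6a UMI, and their Krt17 level was 866, 1045 and 763 CPM. Krt17 in these border cells lay between the members, at 266, 335 and 308 CPM, and the cells with 2 or more Krt6a UMIs, at 2190, 2016 and 2715 CPM.

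Among 20 epithelial genes outside the rule, all were detected, with a summed level of 1506, 1030 and 629 CPM in the members against 72.2, 46.6 and 27.3 CPM in cells gated as mesenchymal (a UMI of Pdgfra, 1 of Prrx1 or Twist1 and none of Epcam). Spint2, a membrane protease inhibitor of epithelia, was the most abundant of them by UMI count. The members also carried RNA of other cell types. At least 1 UMI of 9 genes of other types (Twist1, Prrx1, Pdgfra and Runx2 of the mesenchyme, Myod1 and Myf5 of muscle, Pecam1 of endothelium, C1qb of macrophages and Sox10 of glia) was found in 56 of 88, 102 of 153 and 201 of 298 members, or 63.6%, 66.7% and 67.4%. Prrx1 accounted for 292 of these 359 cells and Pdgfra for 213, while Pecam1 was found in 17, C1qb in 16, Sox10 in 12, Myod1 in 4 and Myf5 in 3. The summed level of 14 mesenchymal genes was 2850, 4573 and 5238 CPM in the members, led by Meg3, against 10986, 9931 and 8933 CPM in mesenchymal cells and 986, 659 and 2296 CPM in cells gated as myeloid (3 or more UMIs of Tyrobp, 1 of Fcer1g and none of Epcam), which should lack them. The members with any of the 9 genes had median depths of 15276, 15598 and 15840 UMIs, above the 10810, 6753 and 6272 UMIs of the 180 members with none. In these 180 cells the mesenchymal sum was 1029, 1047 and 1248 CPM and the epithelial sum 1844, 1265 and 1088 CPM. The source of the mesenchymal RNA was not tested, and the main genotype results are also given for these 180 cells.

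**Figure D1:**
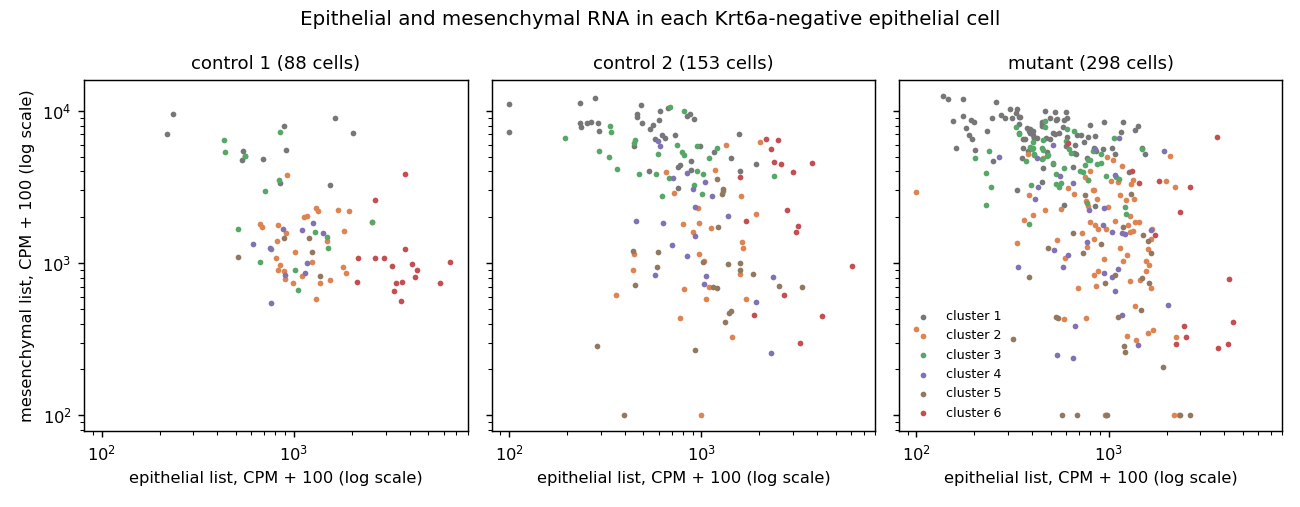
Each point is 1 Krt6a-negative epithelial cell, placed by the summed CPM of 20 epithelial genes (x axis) and of 14 mesenchymal genes (y axis), each plus 100 on a log scale, in 1 panel per library and coloured by cluster. The cells of cluster 1 (grey) lie at the top left of the cloud, and the median mesenchymal sum per cell was 1296 CPM in control 1, against 3525 and 3386 CPM in control 2 and the mutant.

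The comparison of Krt6a-negative with Krt6a-positive epithelial cells asks how cells without this periderm keratin differ from those with it, within the same libraries. It was made on UMIs summed per class and library, with edgeR's quasi-likelihood test, the library as a block and Benjamini-Hochberg adjustment over 10686 genes, and the genes of the rule were left out. Of these genes, 209 were higher in the Krt6a-negative cells (1.96%) and 487 were lower (4.56%). Cells were divided by their own Krt6a count, so that genes whose transcripts accompany Krt6a in a cell differ by the way the classes were made. The 3 libraries supply the spread, and 2 of them are controls.

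The genes that were lower in the Krt6a-negative cells included keratins, junction proteins and ligands of the superficial layer. Krt17 stood at 266, 335 and 308 CPM in Krt6a-negative cells and at 1779, 1897 and 2176 CPM in Krt6a-positive cells, a log2 difference of -2.70 ± 0.08 (SE, adjusted p = 9.8e-13 by edgeR's quasi-likelihood test with Benjamini-Hochberg adjustment). The classes did not overlap. Tagln, an actin-binding protein, stood at 7.18, 10.5 and 9.69 CPM against 297, 167 and 180 CPM, a log2 difference of -4.37. Pthlh, the parathyroid hormone-like ligand, stood at 26.6, 34.0 and 42.5 CPM against 400, 338 and 198 CPM, a log2 difference of -2.97. Gal, which encodes the neuropeptide galanin, was lower by 3.71 on the log2 scale, but its level in Krt6a-negative cells varied among the libraries from 4.31 through 56.6 to 323 CPM. The largest differences among genes of at least 50 CPM were those of Ly6d (-4.42) and Tagln, followed by the cell cycle inhibitor Cdkn2b (-3.92), Gal, the hormone Fgf21 (-3.12), C1qtnf3 (-3.12), the chemokine Ccl21a (-2.98), Pthlh, the small GTPase Rhov (-2.72) and Krt17. With control 2 left out C1qtnf3 was no longer called by edgeR, with an adjusted p of 0.11.

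Genes that were higher in the Krt6a-negative cells differed by less. Pdgfa, the ligand that epithelium sends to the Pdgfra receptor of mesenchyme, stood at 311, 280 and 238 CPM against 171, 153 and 106 CPM in Krt6a-positive cells, a log2 difference of 0.98 ± 0.11 (SE, adjusted p = 2.1e-05 by edgeR's quasi-likelihood test with Benjamini-Hochberg adjustment). All 3 libraries showed it, and the lowest Krt6a-negative level was above the highest Krt6a-positive one. Cbr2, a carbonyl reductase of airway epithelium, stood at 136, 86.4 and 32.4 CPM against 74.3, 18.9 and 4.94 CPM, a log2 difference of 1.86. Wfdc2, a secreted protease inhibitor of airway and oral epithelium, stood at 415, 115 and 115 CPM against 180, 62.6 and 34.6 CPM, a log2 difference of 1.27. Both differed between libraries within a class by as much as between the classes. The other genes named by size were Chchd10 (1.22), the matrix protein Smoc2 (1.12), the laminin receptor Bcam (1.07), the airway cytochrome Cyp2f2 (1.01), Ifitm1 (0.95), the mitotic activator Cdc20 (0.90) and Lypd2 (0.89). Without control 2, Pdgfa, Wfdc2 and Bcam remained called of these 10 genes, and the other 7 had adjusted p values from 0.073 to 0.22 by edgeR.

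**Figure D2:**
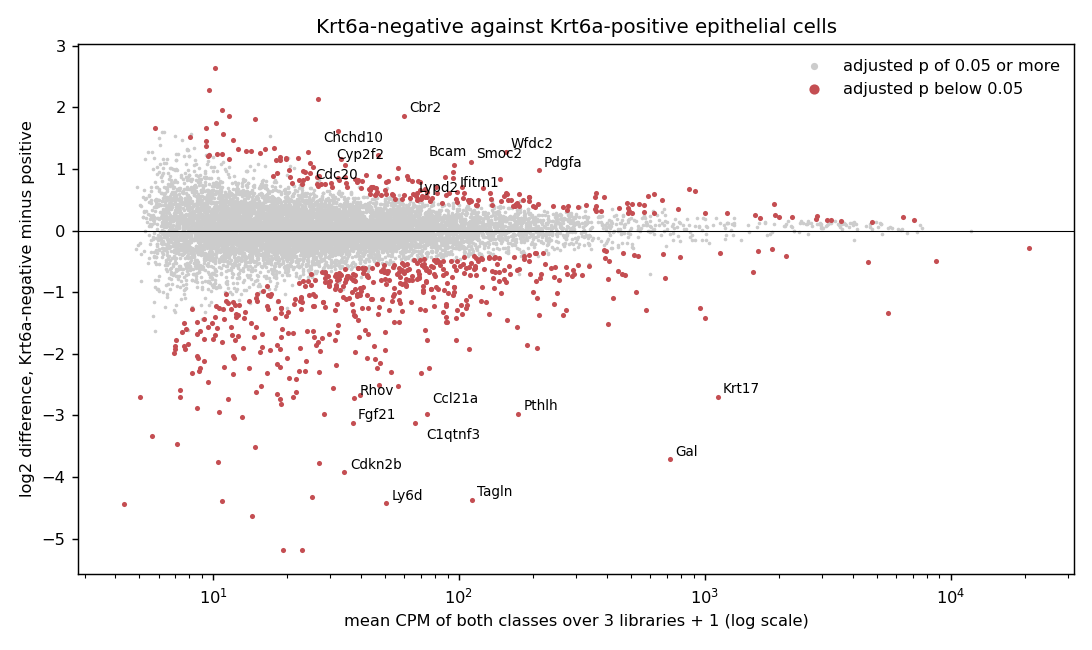
Each point is 1 of 10686 genes, placed by its mean CPM over both classes and 3 libraries plus 1 (x axis, log scale) and its log2 difference between Krt6a-negative and Krt6a-positive cells (y axis), red where the adjusted p is below 0.05, with the 20 genes named by size labelled. The labelled genes that were lower reach -4.42, while the labelled genes that were higher do not pass 1.86.

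Most of the superficial and junction genes tested were lower in the Krt6a-negative cells, against 4.56% of all genes lower and 1.96% higher. Of 16 periderm genes tested, 13 were lower in Krt6a-negative cells and none was higher, with a median log2 difference of -1.59 against 0.02 over all genes. Sfn, the 14-3-3 protein of stratified epithelium, stood at 333, 345 and 308 CPM against 968, 812 and 672 CPM (-1.29). Of 14 desmosome and adherens junction genes, 11 were lower and none higher, with a median of -1.20, among them the desmosome plaque genes Dsp (-1.37), Jup (-1.36) and Pkp1 (-2.52). Of 7 genes of suprabasal differentiation tested, 4 were lower (Krtdap, Notch3, Dmkn and Lgals7) and none higher. Of 20 general epithelial genes, 7 were lower, among them Cdh1, which encodes E-cadherin (-1.13), and 1 was higher, the simple keratin Krt19 (0.71). With cells holding other-type UMIs left out of both classes, Krt19 was at 0.08 and no longer called.

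Beside the 1.96% of all genes that were higher in Krt6a-negative cells and the 4.56% that were lower, the basal genes split. Of 17 tested, 4 were higher in Krt6a-negative cells: the p63 gene Trp63 (0.66), the basal keratin Krt15 (0.43), the ligand Wnt10a (1.29) and the transcription factor Bcl11b (0.41). Among the basal genes that were lower were Itga6, an integrin, and Lama3, a laminin chain, both of the hemidesmosome zone. Krt15 stood at 952, 494 and 252 CPM in Krt6a-negative cells and at 788, 356 and 172 CPM in Krt6a-positive cells, so that control 1 was highest and the mutant lowest in both classes. Of 20 genes of mitosis and DNA replication, 9 were higher and none lower, with a median of 0.45. The mitotic kinase Cdk1 stood at 85.4, 91.5 and 70.2 CPM against 34.3, 57.5 and 40.9 CPM (0.80), and the topoisomerase Top2a at 201, 294 and 187 CPM against 140, 199 and 129 CPM (0.54). Of 12 genes of nasal and pharyngeal epithelium tested 4 were higher and none lower, and of 7 ciliated genes tested 4 were higher (Foxj1, Ccno, Rsph1 and Cfap126) and none lower. Of 10 oral placode genes, Pitx1 (0.69) and Lef1 (1.29), transcription factors of oral epithelium and of Wnt signalling, were higher. The median of that list was -0.09.

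Over all genes 1.96% were higher in Krt6a-negative cells and 4.56% lower, with a median log2 difference of 0.02. Among 21 secreted ligands, Pdgfa, Wnt6 (0.88) and Wnt10a were higher in Krt6a-negative cells and 5 were lower, with a median of 0.03. The 5 included all 3 TGF-beta ligands, Tgfb3 (-1.77), Tgfb1 (-1.31) and Tgfb2 (-0.69), together with Wnt7b (-0.80) and Wnt11 (-1.28). Tgfb3 stood at 25.1, 31.0 and 66.4 CPM against 111, 215 and 126 CPM. The gap between the classes in Tgfb3 was smallest in the mutant. Of 21 receptors, the Shh receptor and target Ptch1 was higher (0.71) and Notch1, Tgfbr2 and Acvr1 were lower, with a list median of -0.14. Of 18 TGF-beta SMAD and response genes, with a median of -0.38, 6 were lower and none higher. The 6 were Cdkn2b, Cdkn1a, Skil, Tgfbi, Itgb6 and Ltbp1. Of 16 epithelial genes of cleft palate, which overlap the other lists, 8 were lower and 1 was higher, with a median of -0.58. Fewer calls were made in 7 FGF target genes (1 lower), 13 basement membrane genes (1 lower), 14 stress genes (2 lower), 5 interferon genes (none) and 14 mesenchymal genes (Meg3 lower), and the rest of each list did not pass the test.

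The number of calls in the class comparison depended on the fit and the libraries. DESeq2 called 22 genes higher and 246 lower, and edgeR without the library as a block called 0 higher and 72 lower, with 939 genes at an unadjusted p under 0.05. Without control 2, 8 genes were higher and 105 lower, and with both classes compared only over cells holding none of the 9 other-type genes, 79 were higher and 222 lower of 4575 tested. Of the 490 original calls that could be tested in those cells 257 were called again and 489 kept their sign.

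Within the members, 6 clusters were found by their variable genes, with the genes of the rule left out. They are described by their leading genes, and no gene is tested between clusters, since the clusters were made from the same counts. Ranks are pooled over libraries, and some rest on 1 library. Cluster 1 (12, 39 and 90 cells) was led by Sncg, Stmn2, Col1a1 and Col2a1, which are genes of neurons, bone and cartilage. Its Sncg level was 0, 1.15 and 169 CPM, so that gene led through the mutant, while Col1a1 stood at 1114, 1329 and 1541 CPM. Its cells had a median of 21592 UMIs, 138 of 141 had a UMI of another cell type and its mesenchymal sum was 7308 CPM, so it is given no name. Cluster 2 (29, 27 and 78 cells) was led by Gal, Cbr2, Dapl1 and F3, with Sfn among its 10 leading genes. Gal stood at 3.33, 22.3 and 1094 CPM in it and led through the mutant, while Dapl1 stood at 682, 442 and 397 CPM. Cluster 3 (15, 27 and 53 cells) was led by the chemokine Cxcl14 and by Psat1, Fgfbp1 and Xpa, with Pitx1 among its 10 leading genes. Of the 95 cells of cluster 3, 87 had a UMI of another cell type. Cxcl14 stood at 502, 12.2 and 2.66 CPM in it and led through control 1. Cluster 4 (10, 20 and 34 cells) was led by Ube2c, Ccnb1, Cdc20 and Cenpf, which act in mitosis. Cluster 5 (5, 23 and 28 cells) was led by Fgfbp1 and Pitx1 and included Shh among its 10 leading genes, with Shh at 59.1 CPM in it and 9.62 CPM in the other members. By library Shh stood at 22.8, 98.4 and 29.5 CPM in cluster 5, so that control 2 was highest. Cluster 6 (17, 17 and 15 cells) was led by Foxj1, Upk3a, Dynlrb2, Cyp2f2 and Lypd2. It is called ciliated-like from the ciliated genes Foxj1, Pifo and Deup1 among its 10 leading genes. The name covers only part of its cells and genes. The summed level of the nasal and pharyngeal genes was 2230 CPM in it against 684 CPM in the other members.

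The clusters took unequal shares of the libraries. Cluster 1 held 13.6% of the members in control 1 (95% exact interval 7.25 to 22.6), 25.5% in control 2 (18.8 to 33.2) and 30.2% in the mutant (25.04 to 35.8). The ciliated-like cluster held 19.3% in control 1 (11.7 to 29.1), 11.1% in control 2 (6.61 to 17.2) and 5.03% in the mutant (2.84 to 8.17). The mutant share was below both controls, and its interval overlapped that of control 2. These are shares of the cluster and not of cells with ciliated genes. Without centring the libraries the best-matching cluster held 22, 27 and 24 cells, 17.6% of control 2. Among the cells with no other-type UMI it held 5 of 32, 2 of 51 and 4 of 97, which is 3.92% of control 2, and there the mutant was no longer below both controls. Clusters 2 to 5 had shares in the mutant between those of the controls, except cluster 3, which held 17.0%, 17.6% and 17.8%. At a higher resolution there were 10 clusters, and the ciliated-like cluster kept 49 of its 49 cells there.

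**Figure D3:**
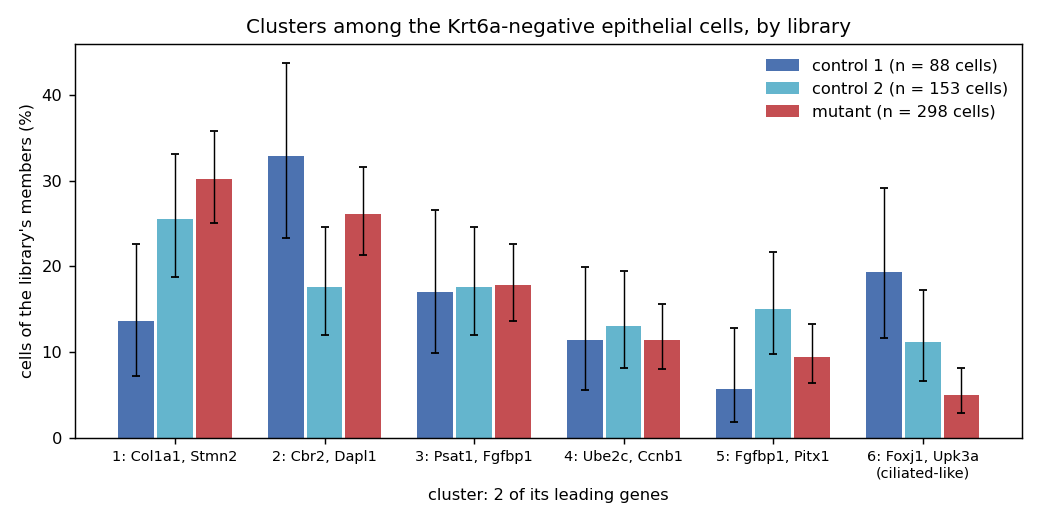
Bars give the percentage of each library's Krt6a-negative epithelial cells in each of 6 clusters, with 95% exact binomial intervals that cover counting error only, for control 1, control 2 and the mutant. The ciliated-like cluster holds 19.3% and 11.1% of the controls and 5.03% of the mutant, with overlapping intervals for control 2 and the mutant.

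The keratins of the ciliated-like cluster were mixed. Krt14 stood at 21.6 CPM in it against 476 CPM in the other members, and Trp63 at 9.09 against 59.6 CPM. Krt14 is a gene of the rule, so its value is given as a description only. The simple keratin Krt18 stood at 394 against 92.2 CPM and Krt19 at 470 against 53.0 CPM, while the basal keratin Krt15 also stood higher, at 1168 against 357 CPM. These values are pooled over libraries. Krt15 over all members differed among the libraries, at 952, 494 and 252 CPM, so its pooled values mix library with cluster. The basal sum, which includes Krt15, was 1433 CPM against 1013 CPM when pooled over libraries. By library it was 2036, 889 and 1297 CPM in the cluster and 1623, 1165 and 814 CPM over all members. In control 2 the cluster thus lay below the members of its library. The epithelial sum was 2847 CPM there against 660 CPM, and the ciliated sum 1158 CPM against 23.7 CPM. Within the cluster the ciliated sum was 1642, 1166 and 317 CPM, and cells with a Foxj1 UMI were 10 of 17, 8 of 17 and 5 of 15. Its cells with UMIs of 2 or more ciliated genes were 12 of 17, 7 of 17 and 5 of 15. Most of its cells in control 2 and in the mutant thus had a UMI of at most 1 ciliated gene. These values describe cells that the same genes brought together. Over all members, which the ciliated genes did not choose, cells with UMIs of 2 or more ciliated genes were 14 of 88 in control 1 (15.9%, 95% exact interval 8.98 to 25.2), 11 of 153 in control 2 (7.19%, 3.64 to 12.5) and 11 of 298 in the mutant (3.69%, 1.86 to 6.51).

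Ciliated genes are switched on by Foxj1 and by RFX factors, which bind X-box sequences. The letters GTTGCCA, part of the X-box, were searched on both strands in the 250 bases before each annotated start, in RefSeq sequence of the build GRCm38.p6. They were found for 6 of the 9 listed ciliated genes that had a promoter in the table (Ccno, Cdhr3, Deup1, Mcidas, Pifo and Sntn, but not Cfap126, Dnah5 or Fam183b), which is 6 of the 13 promoters of those genes, and in 3.66% of all 32851 promoters. Foxj1, Rsph1 and Tppp3 had no entry. Ccno and Mcidas, neighbours on chromosome 13 that act in making the many basal bodies of ciliated cells, are shown because both were lower in the mutant members by the rule given below, and the stretches run along the plus strand at chr13:112987552-112987649 and chr13:112993618-112993739, upstream of the annotated starts, with the match in capitals. A match is a description of letters and not a binding site.
Ccno: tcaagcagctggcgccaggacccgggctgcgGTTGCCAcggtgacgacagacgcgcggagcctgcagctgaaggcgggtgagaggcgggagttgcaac
Mcidas: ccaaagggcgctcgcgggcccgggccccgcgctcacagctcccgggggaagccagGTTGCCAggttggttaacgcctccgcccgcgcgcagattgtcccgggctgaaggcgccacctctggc

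The comparison of the mutant with the controls asks what differs in epithelial cells when TGF-beta reception is lost in the mesenchyme beside them. It has 1 mutant library, so that genotype and library cannot be told apart, and no test was made. A size rule was used instead: a gene was counted when its log2 ratio, mutant against the mean of the controls, was 1 or more in size and larger than the gap between the controls, and the mutant was above both of them or below both. Genes under 10 CPM in the mutant and in either control were left out. Of 9044 genes, 158 were higher (1.75%) and 199 were lower (2.2%). Of the 158, 120 reached 10 CPM in the mutant but not in both controls, and of the 199, 111 reached it only in the controls. Such a gene was kept through the group in which it was high, so that the counts and medians of the gene lists below describe the genes that passed the filter and support nothing about the lists. More loosely, 2186 genes (24.2%) lay above both controls and 3446 (38.1%) below both. With TMM scaling factors in place of totals, the counts turned to 220 higher and 136 lower, while the median log2 ratio of all genes moved from -0.04 to 0.07. With the 180 cells that had no other-type UMI, 297 of 8399 genes were higher (3.54%) and 726 lower (8.64%), and of the 357 original genes 154 met the same rule again and 295 kept their sign. Tgfbr1 itself stood at 56.7, 45.7 and 55.5 CPM and Osr2 at 70.3, 121 and 55.1 CPM, and 3′ reads outside the deleted part of Tgfbr1 check nothing about the deletion. Since sums over cells are compared, fewer cells of a kind and less RNA per cell cannot be told apart in these levels.

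The ciliated genes were lower in the mutant members. Foxj1 stood at 85.4 CPM in control 1, with an exact 95% Poisson range of 70.7 to 102, at 55.8 CPM in control 2, with a range of 46.7 to 66.1, and at only 8.51 CPM in the mutant, with a range of 5.96 to 11.8. This is a log2 ratio of -3.02 with a gap of 0.61 between the controls. The mutant range lay below both control ranges. In mesenchymal cells Foxj1 stood at 1.20, 2.58 and 1.58 CPM. With each cell thinned to 2000 UMIs, a Foxj1 UMI was found in 5 of 88, 7 of 153 and 0 of 295 members, or 5.68%, 4.58% and 0%, and in none of the thinned myeloid-gated cells of any library. A count of 0 of 295 allows a share of up to 1.02% by the limit of 3 counts, or 1.24% by the exact interval, which bounds thinned cells with a Foxj1 UMI and not cells that express the gene. Unthinned shares were 11.4%, 8.50% and 4.70%, at median depths of 12891.5, 12993 and 11504 UMIs. Of the 12 ciliated genes 8 reached the level of 10 CPM. All 8 were lower in the mutant by the rule, against 2.2% of all genes. Their median log2 ratio was -3.42, against -0.04 over all genes. Of these 8, 7 reached that level only through the controls, and only Tppp3, at 13.2 CPM, reached it in the mutant. The filter thus favoured genes that were lower, and the count and the median are a description of the genes that passed it.

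Rsph1, a component of the radial spoke of the cilium, was counted 53, 37 and 3 times. Against the UMIs of the 2 controls pooled, unlike the ratios above, this is 33.6-fold lower in the mutant (11.1 to 166 by counting error). Pifo, which acts at the primary cilium, stood at 50.2, 29.4 and 1.65 CPM, and Deup1, which amplifies centrioles, at 46.6, 20.1 and 1.89 CPM. Ccno stood at 55.3, 14.7 and 4.02 CPM and Mcidas at 25.1, 10.9 and 1.65 CPM. Control 2 was below control 1 in every one of these genes. The summed ciliated level was 429, 188 and 33.6 CPM in the members and 40.3, 19.2 and 25.9 CPM in mesenchymal cells, and in myeloid-gated cells it was 36.8, 10.7 and 6.87 CPM. The mutant members lay above both backgrounds, by less than the control members did over the mesenchymal one. In the cells without other-type UMIs the sum was 646, 274 and 20.9 CPM, and the 8 genes had a median of -3.40 (a count of 0 set to 3 UMIs). In those cells none of the 8 reached 10 CPM in the mutant, so that passing the filter required a lower mutant level.

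Among the other genes named for the lowest ratios, Cldn7, Krt19, Cyp2f2, Lypd2 and Cbr2 were lower in the mutant. Cldn7, a tight junction protein, stood at 190, 102 and 36.6 CPM, a log2 ratio of -1.93 with a gap of 0.89. Krt19 stood at 215, 123 and 47.0 CPM, a log2 ratio of -1.79. Cyp2f2, Lypd2 and Cbr2 had ratios of -2.04, -1.78 and -1.75, and the first 2 were among the leading genes of the ciliated-like cluster. Within that cluster Cldn7 stood at 588, 436 and 282 CPM, Cyp2f2 at 353, 415 and 307 CPM and Lypd2 at 388, 333 and 361 CPM, where the mutant value of Lypd2 lay between the controls. Summed over all members, both controls lay above the mutant in each of these 5 genes, and control 1 above control 2. The same order held for all 5 in Krt6a-positive and in mesenchymal cells, so it was not particular to the members. In Krt6a-positive cells Krt19 stood at 126, 71.3 and 31.5 CPM, Cyp2f2 at 54.3, 43.7 and 11.2 CPM and Cldn7 at 237, 99.0 and 71.9 CPM. In mesenchymal cells Krt19 stood at 12.0, 3.82 and 1.81 CPM and Cldn7 at 10.5, 3.26 and 1.62 CPM. In the cells without other-type UMIs Cldn7 was at -1.57, Cyp2f2 at -1.92, Lypd2 at -1.11 and Cbr2 at -1.16, while Krt19 was at -0.96 and no longer met the rule. The basal keratin Krt15 stood at 952, 494 and 252 CPM, a log2 ratio of -1.44, and a Krt15 UMI was found in 64.8%, 49.7% and 32.5% of thinned members against 3.64%, 0% and 0% of myeloid-gated cells. Without other-type UMIs its ratio was -0.92 and it did not meet the rule.

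Of the other lowest genes, Hmga1 and Hist1h2ap were also low in the mutant library in mesenchymal cells. Hmga1, an architectural chromatin protein, stood at 132, 119 and 28.6 CPM in the members and at 20.9, 20.3 and 7.51 CPM in mesenchymal cells. Hist1h2ap, a histone gene, stood at 1275, 1687 and 397 CPM in the members and at 1075, 1770 and 396 CPM in mesenchymal cells. Hist1h2ap shares sequence with other histone copies, and its count is uncertain for that reason. The stress gene Atf3 stood at 113, 92.3 and 27.9 CPM in the members, and at 17.8, 12.7 and 18.2 CPM in mesenchymal cells, where the mutant was not below both controls. Without other-type UMIs Hmga1 had a ratio of -1.88 (-2.13 with all members) and Atf3 one of -1.08 (-1.87), and both met the rule. Hist1h2ap then stood at 517, 763 and 316 CPM, a ratio of -0.99 (-1.88 with all members), and no longer met it. The share of these differences that belongs to the library as a whole was not tested.

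**Figure D4:**
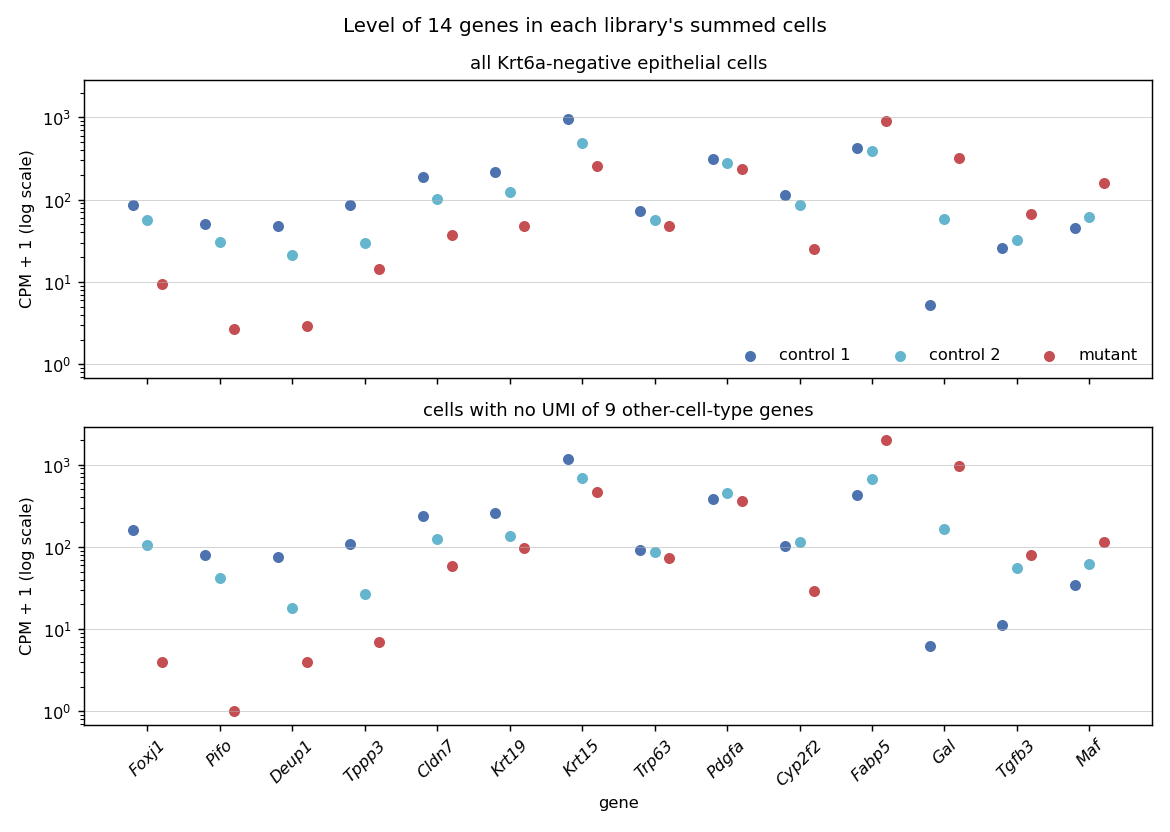
Points give the CPM plus 1 (log scale) of 14 genes in each library's summed Krt6a-negative epithelial cells, for all members (top) and for the 180 members with no UMI of 9 other-cell-type genes (bottom). Foxj1, Pifo and Deup1 lie far lower in the mutant in both panels, whereas Fabp5 lies higher in the mutant in both.

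Among the 14 genes of 50 CPM or more that were higher in the mutant by 2 times the gap, 11 had a lower level in the members than in all other barcodes of the mutant. Sncg, a synuclein of neurons, was counted once in each control and 367 times in the mutant. Against the UMIs of the 2 controls pooled this is a ratio of 164 (45.01 to 1357 by counting error). In mesenchymal cells Sncg stood at 0.51, 0.90 and 55.9 CPM. Stmn2, a neuronal tubulin regulator, stood at 17.9, 10.9 and 69.0 CPM, Fxyd7 at 10.0, 13.4 and 60.3 CPM and Shank1 at 20.1, 20.1 and 50.3 CPM. Foxp2, a transcription factor, stood at 38.8, 35.2 and 117 CPM with all members but had a log2 ratio of 0.02 without other-type UMIs, and the semaphorin receptor Nrp2 stood at 28.0, 22.2 and 87.7 CPM and reversed to -0.24. Mgp, a calcification inhibitor, stood at 41.6, 31.5 and 103 CPM. Without other-type UMIs Sncg stood at 0, 0 and 65.7 CPM, Stmn2 at 5.17, 2.15 and 32.8 CPM, Fxyd7 at 5.17, 10.8 and 35.8 CPM and Shank1 at 2.59, 4.31 and 13.4 CPM. Mgp had a ratio of 1.55 there, and these 5 genes again met the rule. Apart from Mgp they did not reach 10 CPM in both controls in those cells and passed the filter through the mutant. Runx2, the osteoblast transcription factor, is one of the 9 genes and cannot be compared in those cells.

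The other 3 of these 14 genes, Fabp5, Maf and Tgfb3, had a level in the members at least equal to that in all other barcodes of the mutant. Fabp5, a fatty acid binding protein of stratified epithelia, stood at 419, 395 and 895 CPM, a log2 ratio of 1.14 with a gap of 0.09, and at 1.88 without other-type UMIs. The mutant lay above both controls in both sets of cells. Maf, a transcription factor, stood at 43.8, 60.4 and 158 CPM in the members, 81.8, 50.5 and 154 CPM in mesenchymal cells and 598, 604 and 481 CPM in myeloid-gated cells. Without other-type UMIs it stood at 33.6, 60.3 and 112 CPM, a log2 ratio of 1.31 that met the rule. Tgfb3 stood at 25.1, 31.0 and 66.4 CPM, a log2 ratio of 1.25, and the exact 95% range of the mutant, 58.9 to 74.6, lay above both controls. A Tgfb3 UMI was found in 4.55%, 3.27% and 13.9% of thinned members, against 5.45%, 0% and 0.61% of myeloid-gated cells, so that the share in control 1 was at background. Without other-type UMIs Tgfb3 stood at 10.3, 53.9 and 77.6 CPM, where the gap between the controls exceeded the ratio. Gal stood at 4.31, 56.6 and 323 CPM, with a gap of 3.72 between the controls. Its log2 ratio of 4.37 is less than 2 times that gap, so it is not among the genes named by size.

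Of 18 secreted ligands of at least 10 CPM, 2 were higher in the mutant, Tgfb3 and Tgfb2, and 1 was lower, Shh, with a list median of -0.36. Shh was under 10 CPM in the mutant and passed the filter only through the controls, so that it could only be lower. Over all genes 1.75% were higher and 2.2% lower by the same rule. Tgfb2 stood at 27.3, 64.2 and 103 CPM with all members and at 23.3, 47.4 and 14.9 CPM without other-type UMIs, where its log2 ratio reversed from 1.30 to -1.15. Shh stood at 17.9, 17.6 and 8.51 CPM, which is 25, 42 and 36 UMIs, and at 18.1, 40.9 and 10.4 CPM without other-type UMIs, a ratio of -1.38 that met the rule. In those cells 16 ligands passed the level filter, of which Shh, Tgfb2 and Sema3c were lower and none was higher, with a median of -0.04. There 3.54% of all genes were higher and 8.64% lower. Pdgfa stood at 311, 280 and 238 CPM, with a ratio of -0.31 that did not meet the rule. Of 20 receptors and 16 TGF-beta SMAD and response genes none met the rule, and their medians were 0.17 and -0.06. Without other-type UMIs 2 of 18 receptors were lower, Fgfr3 (-2.12) and the neuregulin receptor Erbb3 (-2.34), with a median of -0.15, and 1 of 13 response genes was lower, Smad3 (-1.03), with a median of -0.10. Fgfr3 and Erbb3 passed the filter there only through the controls. The median of the response genes with all members changed sign to 0.05 with TMM factors. Of 6 FGF targets none met the rule, with a median of 0.28. Without other-type UMIs Dusp6, a phosphatase of ERK, was higher (1.23) and the FGF antagonist Spry2 lower (-1.04), with a median of 0.63.

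The other gene lists are given with all members and then without other-type UMIs, beside all-gene medians of -0.04 and -0.07. By the rule 1.75% of all genes were higher and 2.2% lower with all members, and 3.54% higher and 8.64% lower without other-type UMIs. The number of genes that passed the level filter differed between the sets of cells for some lists. Of 18 general epithelial genes of at least 10 CPM, 17 lay below both controls, against 38.1% of all genes. The rule was met by 6 of the 18, with a list median of -0.80. Of the 18, 5 were under 10 CPM in the mutant and passed only through the controls, and 2 of the 6, Cldn3 and Elf3, were among these. Without other-type UMIs 2 of 18 met it, Cldn7 and the transcription factor Elf3, with a median of -0.25. Krt18, the partner of Krt8, stood at 199, 154 and 85.3 CPM, a log2 ratio of -1.03, and had a ratio of -0.70 without other-type UMIs, which no longer met the rule. Of 16 basal genes only Krt15 was lower with all members and only the laminin chain Lama3, kept through the controls, without other-type UMIs, with medians of -0.38 and -0.09. Of 11 periderm genes 3 were lower, with a median of -0.70, and of 13 without other-type UMIs Grhl3 and Rhov were lower and Krt4 higher, with a median of -0.68. Rhov passed the filter only through the controls in both sets of cells, Grhl3 likewise in the second and Krt4 there only through the mutant. Of 11 nasal and pharyngeal genes 3 were lower, with a median of -0.59, and without other-type UMIs 1 of 11 was lower, with a median of -0.49, and 1 of the 3 and the later 1 were kept through the controls. Of 9 oral placode genes Shh and Prox1 were lower, with a median of -0.36, both of them under 10 CPM in the mutant and kept only through the controls. Of 7 without other-type UMIs 2 were lower and 2 higher, with a median of -0.54. The medians of these 5 lists were negative in both sets of cells.

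Of 12 junction genes none met the rule in either set of cells, with medians of -0.14 and 0.27, and of 20 proliferation genes none did, with medians of -0.28 and 0.06. Of 15 cleft palate genes Tgfb3 was higher, with a median of -0.46, and of 16 without other-type UMIs Grhl3, kept through the controls, was lower, with a median of 0.02. Of 12 basement membrane genes, and of 10 without other-type UMIs, none met the rule, with medians of 0.13 and 0.00. Of 14 stress genes Atf3 was lower, with a median of -0.11, and without other-type UMIs Atf3 and Jund were lower and Ier3 higher, with a median of -0.44. Of 6 suprabasal genes Lgals7, a galectin of stratified epithelia, was higher, with a median of -0.04, and of 7 without other-type UMIs Lgals7 and Dmkn, the latter kept through the mutant, were higher, with a median of 0.35. Of 3 interferon genes none met the rule in either set, with medians of 0.12 and 0.61.

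**Figure D5:**
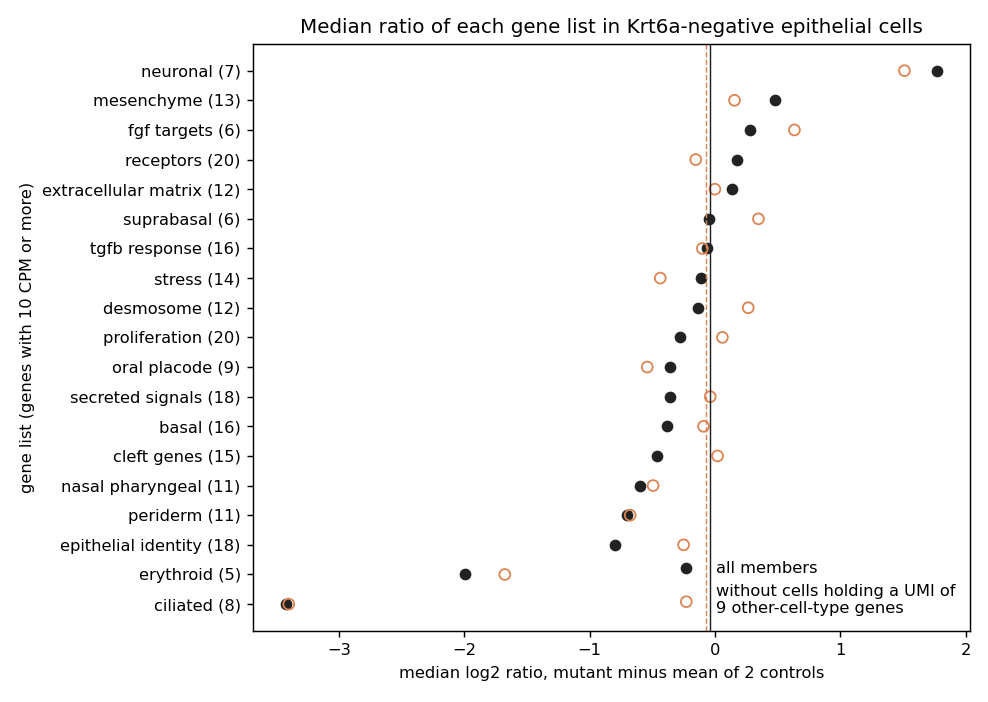
Points give the median log2 ratio (mutant minus the mean of 2 controls, x axis) of each gene list with 5 or more genes of at least 10 CPM, for all members (filled) and for members without UMIs of 9 other-cell-type genes (open), with vertical lines at the median of all genes. The ciliated list lies at -3.42 and -3.40, and the general epithelial list moves from -0.80 to -0.25.

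Markers of other cell types also differed among the libraries, and several of their sums differed between the 2 controls too. By the rule 1.75% of all genes were higher and 2.2% lower with all members. Of 13 mesenchymal genes Runx2 was higher, with a median of 0.48. Of 8 without other-type UMIs Osr2, kept through the controls, was lower, with a median of 0.16. Twist1, Prrx1, Pdgfra and Runx2 were at 0 in those cells by the way the cells were chosen. The mesenchymal sum of 2850, 4573 and 5238 CPM was highest in the mutant. Of 7 neuronal genes 4 were higher, with a median of 1.77 and a sum of 62.4, 119 and 240 CPM, led by Gap43. Of these 7, 4 reached 10 CPM in the mutant but not in both controls, among them 2 of the 4 higher genes. Without other-type UMIs the sum was 18.1, 53.9 and 122 CPM, and all 6 genes that passed the filter did so only through the mutant, so that their count of 3 higher genes and median of 1.51 followed in part from the filter. Of 3 cartilage genes of at least 10 CPM 2 were higher, with a sum of 23.0, 51.6 and 136 CPM, led by Col2a1. Of the 3, 2 passed only through the mutant, Matn4 of the higher ones among them, and none reached that level without other-type UMIs. Hemoglobin and other erythroid genes had a sum of 3200, 829 and 417 CPM, led by Hbb-bs, and 2 of 5 were lower. Without other-type UMIs the sum was 3005, 724 and 413 CPM, and 2 of 6 were lower, 1 of them kept through the controls, with a median of -1.68. The myogenic sum was 85.4, 14.3 and 5.67 CPM, the endothelial 32.3, 20.6 and 18.9, the macrophage 53.1, 21.8 and 8.74, the glial 28.7, 33.6 and 39.9, the melanocyte 5.74, 1.68 and 2.84 and the neutrophil 3.59, 0.42 and 0 CPM. Myog, Cdh5 and Tyrobp were at 0 by the rule, and the melanocyte genes Dct, Mlana and Tyr and the neutrophil genes Ltf and Lcn2 were at 0 in all members. The part of these markers in the other differences was not tested beyond leaving out the cells with UMIs of the 9 genes.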

How the data were processed

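Reads were aligned by the authors in Cell Ranger, who deposited 1 matrix of raw UMI counts per library, with 32285 genes and no normalization. The study's protocol names version 4.0.0 and the submitters' processing notes also list 3.1.0, so the version behind the counts is uncertain. The authors' later merging of the 2 controls is not in these counts, and the libraries were kept apart as their labels give them. The gene lists, the rule for the cells and the naming rule were chosen with earlier results of these data known.

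Kept barcodes had 500 or more genes and at most 10% mitochondrial UMIs, which removed 699, 246 and 579. UMIs were summed per library and class in Python 3.11.15 (numpy 2.4.6, scipy 1.17.1, pandas 2.3.3), and sums of 0 entered logarithms as 3 UMIs. Intervals are 95% exact and cover counting error only. The classes were tested with edgeR 4.0.16 (R 4.3.3; filterByExpr, TMM, library as a block, threshold 0.05), with DESeq2 1.42.0 as an alternative, and both sums of a library come from the same cell suspension. Since nothing says that the 2 control libraries came from separate embryos, p-values measure only the spread between these 3 libraries. The scripts were tested on simulated counts. Genes named by size had at least 50 CPM in the higher side and were the 10 highest and 10 lowest, with ribosomal, mitochondrial, sex-linked, predicted and rule genes left out; for the genotype the ratio also had to be 2 times the gap, and the 5 highest and 5 lowest epithelial genes were added. Not every gene that met the naming rule is reported here. Clusters were made with scikit-learn 1.9.0 and leidenalg 0.10.2 (1500 variable genes, centring per library, 15 components, resolution 0.5). Scrublet was run in scanpy 1.11.5. Its own threshold marked 1, 0 and 0 barcodes and was not used, so doublets were kept. An alternative left out the highest scores at a preset 0.8% per 1000 barcodes (48, 124 and 564 barcodes, with 7, 7 and 41 members). Leaving out cells with other-type UMIs was chosen as an alternative after seeing the data for the class test, the shares and the clusters.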

Additional observations from a re-analysis of the deposited data

How the results depend on the processing

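In the class comparison the counts of genes higher and lower in Krt6a-negative cells were 22 and 246 with DESeq2, 369 and 600 with no filter on low counts, 61 and 156 with every cell thinned to 2000 UMIs before the split, 79 and 222 with other-type barcodes left out, and 8 to 183 and 105 to 545 with 1 library left out. Without the replicate block (the library) edgeR called 0 higher and 72 lower, with 939 genes at an unadjusted p under 0.05. All 696 called genes kept their sign with DESeq2 and without the block. Thinning moved Hba-a2 to 0.48, with an adjusted p of 0.416 by edgeR. Between the genotypes the counts of genes higher and lower were 297 and 726 without other-type barcodes, 319 and 592 with members thinned, 26 and 42 above 50 CPM, and 136 to 629 and 257 to 557 with 1 control left out. Without other-type barcodes Nrp2 moved to -0.24, Col2a1 to -0.37, Tgfb2 to -1.15 and Tubb3 to -1.25. Thinning moved Elavl3 to -0.14, Matn4 to -1.35 and Tubb3 to -0.61, and leaving out the highest doublet scores moved Elavl3 to -0.17. The cause of these moves was not tested.

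The share of members among kept barcodes was 2.93%, 2.30% and 1.95% with a keratin and Perp sum of 10 or more, 0.655%, 0.534% and 0.448% with barcodes thinned first, and 1.51%, 1.33% and 1.20% without other-type barcodes. It was 2.88% in control 2 and 2.70% in the mutant with 2 or more Epcam UMIs, and 3.19% in control 1 with 200 or more genes and no mitochondrial limit. The resolution of 0.8 gave 10 clusters. The ciliated-like share of control 2 was 17.6% without centring and 3.92% without other-type barcodes. The members' sums of 1393381 to 4232139 UMIs limit low genes, and 1 mutant library allows no test of the genotype.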
